A study of Xenopus laevis with 6 samples.

Results

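The C/EBP genes of Xenopus laevis were followed in single whole embryos at stage 11.5, during gastrulation. Rows of the deposited count tables were taken as members where the name began with cebpa, cebpb, cebpd, cebpe, cebpg or cebpz, and 12 of 45099 gene rows met this rule. The names alone decided which rows belong, but the family itself was chosen by its measured values, the control levels and the dkk changes within sibling pairs, known from earlier results of these data. Its differences between dkk and control embryos, the adjusted p-values among them, are therefore a description and support nothing beyond it. Control embryos (n = 3) were uninjected, and dkk embryos (n = 3) had been given 100 pg of mRNA for dkk, a secreted inhibitor of Wnt signalling, in the animal part of both cells at the 2-cell stage. Each library came from a single embryo, and the control and dkk embryo of a mating pair were siblings, with 3 mating pairs in all. No embryo injected with a control mRNA was analysed here, so a response to dkk and a response to injection cannot be told apart.

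C/EBP proteins are transcription factors that bind DNA as dimers through a basic leucine zipper (bZIP). In mammals C/EBPα drives the differentiation of myeloid blood cells, liver and fat and holds back cell division. C/EBPβ and C/EBPδ act in inflammation and fat cell formation, C/EBPε in late granulocytes, and C/EBPγ, which lacks an activation domain, mainly as a dimer partner of other bZIP factors. The cebpz gene shares the name only: its protein has no leucine zipper and is related to a yeast factor that assembles ribosomal subunits in the nucleolus. The frog's allotetraploid genome carries L and S copies (homeologs) of many genes, named here by suffix.

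Reads assigned to genes numbered 17460820 to 19880568 per library, and between 15.9% and 17.6% of counted reads were set aside because they aligned to more than 1 place. Near-identical L and S copies can lose reads by that step, which makes the level of either copy less certain. Of 12 C/EBP symbols in a RefSeq table of the assembly Xenopus_laevis_v10.1, 11 had a row, all but cebpa.S. The files hold instead a row named cebpa.1, and whether it is the S copy was not settled. The injected gene's row dkk1.S stood at 11.9 to 19.9 CPM (reads per 1000000 reads in genes, with TMM scaling) in controls and 473 to 725 CPM in dkk embryos, in accord with the labels in every library. Of 22 names of germ layer markers 14 had rows, 26 in all, and each of these rows had reads. Their summed level was 2626 to 3169 CPM in controls and 2198 to 2710 CPM in dkk embryos. CPM values are not divided by transcript length, so levels are compared between embryos within a row and not between genes.

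cebpa, the C/EBPα gene, was higher in every dkk embryo than in any control, in both of its rows. cebpa.1 was read at 31.1, 45.1 and 40.4 CPM in controls 1 to 3 and at 85.5, 144 and 67.5 CPM in their dkk siblings. The groups did not overlap, and the control values lay close together while those of the dkk embryos spread over a 2.13-fold range. The ratio within siblings was 2.75, 3.20 and 1.67 in mating pairs 1 to 3. The row rose in the fit of all embryos (log2 fold change 1.29, SE 0.19; adjusted p = 0.0367 by the quasi-likelihood F test of edgeR, Benjamini-Hochberg over all genes). It was the single C/EBP row past the threshold of 0.05 among 9 that could be tested, where 0.106% of all 21643 genes tested were called higher, 0.467% lower and 0.573% in either direction. The call was lost without pair 2 (log2 fold change 1.09; adjusted p = 0.160, edgeR) and without the mating pair as a block (1.35; adjusted p = 0.672, edgeR).

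cebpa.L had larger sibling differences than cebpa.1 in pairs 1 and 2 and a small one in pair 3. Its level was 16.8, 35.6 and 56.4 CPM in controls 1 to 3 and 128, 176 and 64.7 CPM in their siblings. The lowest dkk embryo stood just above the highest control, and these 2 were the siblings of pair 3. The controls differed among themselves by 3.36-fold, against 1.45-fold for cebpa.1. Sibling ratios were 7.64, 4.95 and 1.15. With ratios so far apart the fitted change did not pass (log2 fold change 1.83 ± 0.70, SE, 95% interval -0.30 to 3.96; adjusted p = 0.685, edgeR). Without pair 3 it passed, at 2.62 ± 0.17 (adjusted p = 0.00164, edgeR). Without pair 1 or pair 2 it stood at 1.25 ± 0.96 and 1.54 ± 1.10 and did not pass (edgeR).

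**Figure D1:**
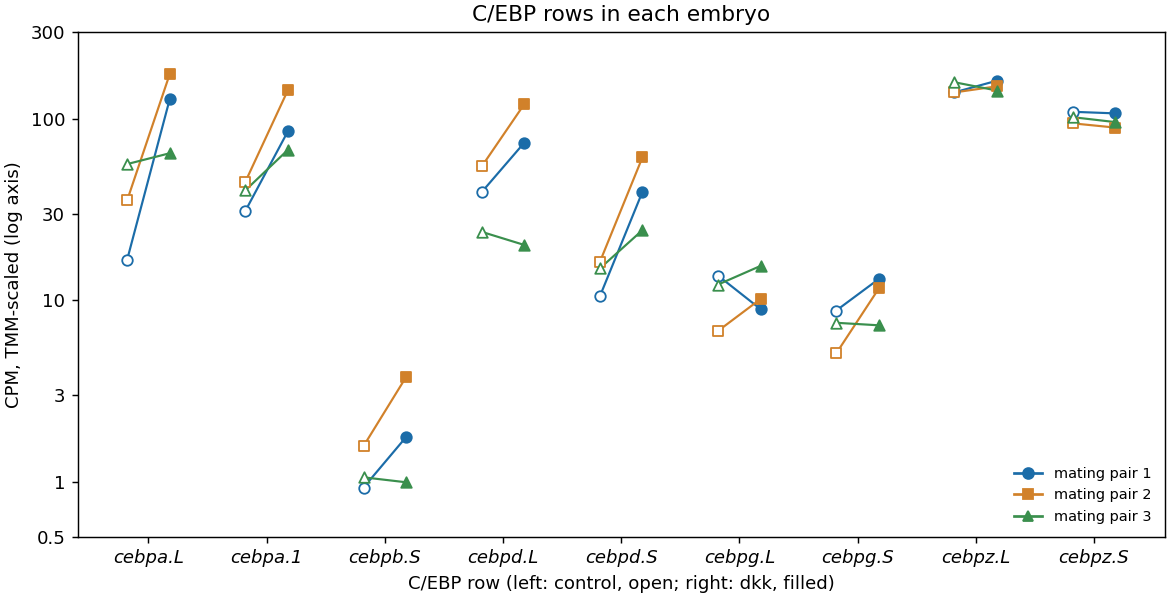
Level of each tested C/EBP row in each embryo, in TMM-scaled CPM on a log axis; open symbols are controls, filled symbols dkk embryos, and each line joins the siblings of a mating pair. For cebpa.L, cebpa.1 and cebpd.S all 3 dkk embryos lie above all 3 controls, and the cebpz rows are nearly level.

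cebpd, the C/EBPδ gene, showed the same order of dkk embryos as cebpa, with pair 2 highest and pair 3 lowest. cebpd.S was read at 10.6, 16.3 and 15.0 CPM in controls 1 to 3 and at 39.7, 61.4 and 24.4 CPM in their dkk siblings. No dkk embryo fell within the range of the controls. The sibling ratios were 3.76, 3.76 and 1.62, and the fitted log2 fold change was 1.51 ± 0.27 (SE), a larger value than that of cebpa.1. It did not pass in the edgeR fit (adjusted p = 0.0792), but passed in DESeq2 (adjusted p = 2.94e-06), in edgeR without a filter on low counts (0.0159) and in edgeR without pair 3 (0.00156). The row did not pass in edgeR without pair 1 (adjusted p = 0.0631), without pair 2 (0.364) or without the block (0.672). limma-voom did not call it either (adjusted p = 0.0564). In the authors' deposited table of 97 genes cebpd.S is the single C/EBP row, with a log2 fold change of 1.09 ± 0.28 (SE) and an adjusted p of 0.0187.

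The other copy, cebpd.L, was read at 39.5, 54.7 and 23.9 CPM in controls and 73.9, 121 and 20.2 CPM in dkk siblings. The groups overlapped, because both embryos of pair 3 were lower than all the others. Ratios were 1.87, 2.20 and 0.847, so the row was higher in pairs 1 and 2 and slightly lower in pair 3 (log2 fold change 0.62 ± 0.27, SE, 95% interval -0.05 to 1.29; adjusted p = 0.665, edgeR). Without pair 3 the change was 1.03 (adjusted p = 0.00829, edgeR). Without pair 1 or pair 2 it was 0.46 and 0.34 and did not pass (edgeR). With the reads of both cebpd copies summed it was 0.92 over all pairs (adjusted p = 0.316, edgeR).

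Over the family, 3 of 9 tested rows had all dkk embryos above all controls, which 2.66% of all tested genes also had, and 0 had all dkk embryos below, which 2.89% of genes had. These 3 rows were also the ones higher in 3 of 3 pairs, where 13.4% of all tested genes were, and cebpz.S was the 1 row lower in 3 of 3 pairs, where 13.9% were. The median log2 fold change of the 9 rows was 0.62, beside -0.00131 for all genes tested. Without pair 3, 4 of 9 rows were called higher (cebpa.L, cebpa.1, cebpd.L and cebpd.S, against 1.53% of all genes called higher by edgeR), and without pair 2 edgeR called 0, with 2 at an unadjusted p under 0.05 and 0.0269% of all genes called higher. Without pair 1 edgeR called cebpa.1 alone, where 32 of 22119 genes were called higher. DESeq2 and edgeR without a filter each called cebpa.1 and cebpd.S higher, where 0.613% and 0.312% of genes were called higher. limma-voom called cebpa.1 alone (0.134% of genes higher), and the fit without the block called 0 C/EBP rows, with 3 higher at an unadjusted p under 0.05 (0.00462% of genes called higher). With 1 control and 1 dkk embryo per mating, whether the change differs between matings could not be separated from the spread between embryos and was not tested. In whole embryos, a change in the number of cells of a type and a change in RNA per cell cannot be told apart.

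**Figure D2:**
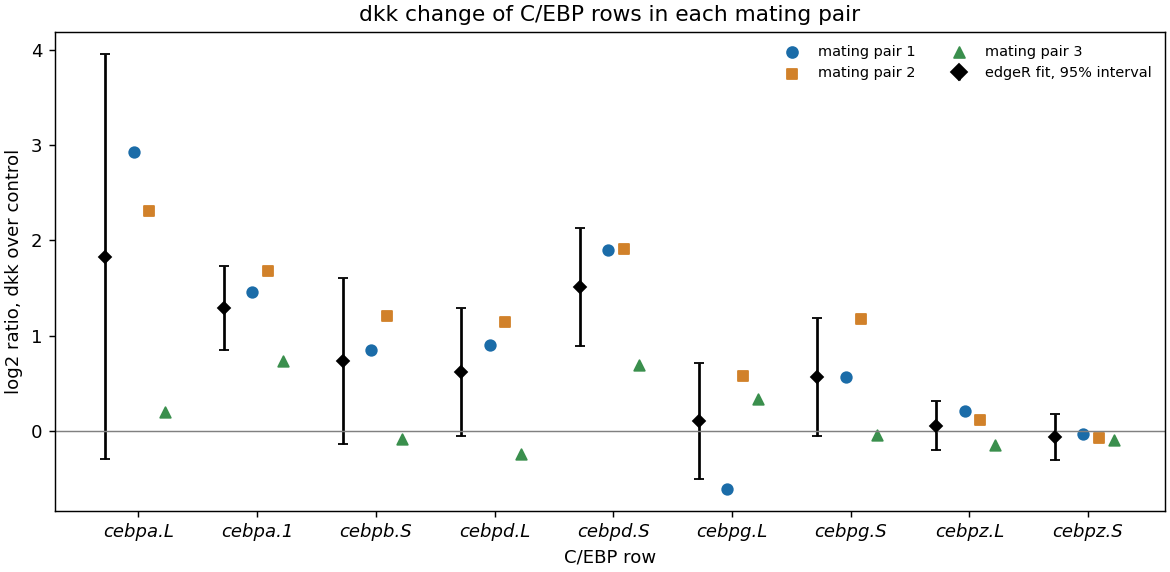
Log2 ratio of dkk over control for each tested C/EBP row, with black diamonds for the edgeR estimate over all 3 pairs and its 95% interval, and coloured symbols for single mating pairs. In every row but cebpg.L, the cebpz rows included, the pair 3 symbol is the lowest of the 3, and for cebpa.L it stands at 0.20 beside 2.93 and 2.30. How often pair 3 is lowest among all tested genes was not counted.

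The remaining bZIP members were read at low levels or did not pass. cebpb.S, a C/EBPβ copy, had 16, 29 and 21 reads in controls 1 to 3 and 33, 68 and 22 in dkk siblings. Pairs 1 and 2 were higher in dkk and pair 3 was level (log2 fold change 0.73 ± 0.38, SE; adjusted p = 0.712, edgeR). Its copy cebpb.L had between 1 and 10 reads in any embryo and was not tested. The C/EBPε rows were at the edge of detection, with 0 to 2 reads for cebpe.L and 0 to 6 for cebpe.S. Where no read was counted, up to 3 expected reads remain possible, which is at most 0.175 CPM here, counting error alone considered. cebpb.L, cebpe.L and cebpe.S were the 3 rows that the filter on low counts removed.

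For cebpg, the C/EBPγ gene, the copies differed in direction in pair 1. cebpg.L was read at 13.7, 6.80 and 12.2 CPM in controls and 8.95, 10.2 and 15.5 CPM in dkk siblings, lower in pair 1 and higher in pairs 2 and 3. cebpg.S was read at 8.80, 5.11 and 7.54 CPM in controls and 13.1, 11.6 and 7.30 CPM in dkk siblings, higher in pairs 1 and 2 and level in pair 3. Neither passed: the log2 fold changes were 0.10 (95% interval -0.50 to 0.71) for cebpg.L and 0.57 (-0.05 to 1.19) for cebpg.S. The sign of cebpg.L turned without pair 2 or pair 3.

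cebpz, the nucleolar gene that carries the C/EBP name, kept almost the same level in all embryos. cebpz.L was read at 140, 140 and 159 CPM in controls and 162, 151 and 143 CPM in dkk siblings, and cebpz.S at 109, 94.5 and 102 CPM and at 107, 89.6 and 96.0 CPM. The groups overlapped in both rows. The log2 fold changes were 0.06 (95% interval -0.20 to 0.31) and -0.07 (-0.31 to 0.18). In the list of nucleolar ribosome assembly genes, to which the role of cebpz belongs, edgeR called 0 of 39 tested rows, with 1 higher and 0 lower at an unadjusted p under 0.05, and DESeq2 and limma-voom called 0. The smallest p in that list was that of nop16.L, a nucleolar protein gene (log2 fold change 0.36; adjusted p = 0.614, edgeR).

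The share of reads in the L row differed between siblings by more than counting error in all pairs for cebpa and cebpd. For cebpg and cebpz it did so in some pairs, as the plot of L shares shows. How often other genes with L and S rows do so was not counted, so the differences are a description. For cebpa the second row is cebpa.1, which was not settled as its S copy. The cebpb rows held 22 to 78 reads together, and their siblings' intervals overlapped in every pair. The share compares embryos only, since copies may differ in length and in reads set aside, and its 95% Wilson interval covers counting error alone. cebpd.L held 78.9%, 77.0% and 61.4% of the reads of both cebpd rows in controls 1 to 3 and 65.1%, 66.2% and 45.3% in dkk siblings. In every pair the L share was lower in the dkk embryo, with intervals that did not overlap. cebpa.L held 35.0%, 44.2% and 58.3% of the reads of both cebpa rows in controls and 60.0%, 55.1% and 48.9% in dkk siblings. That share was higher in dkk in pairs 1 and 2 and lower in pair 3, and no pair's intervals overlapped. The share of cebpg.L was 60.9%, 57.1% and 61.9% in controls and 40.5%, 46.7% and 68.0% in dkk siblings, lower in pairs 1 and 2 and higher in pair 3, but the siblings' intervals overlapped in pairs 2 and 3. cebpz.L held between 56.1% and 62.8% in all 6 embryos. Its share was higher in the dkk embryo of pair 1 (60.2% against 56.1%) and of pair 2 (62.8% against 59.7%), small differences whose intervals did not overlap.

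**Figure D3:**
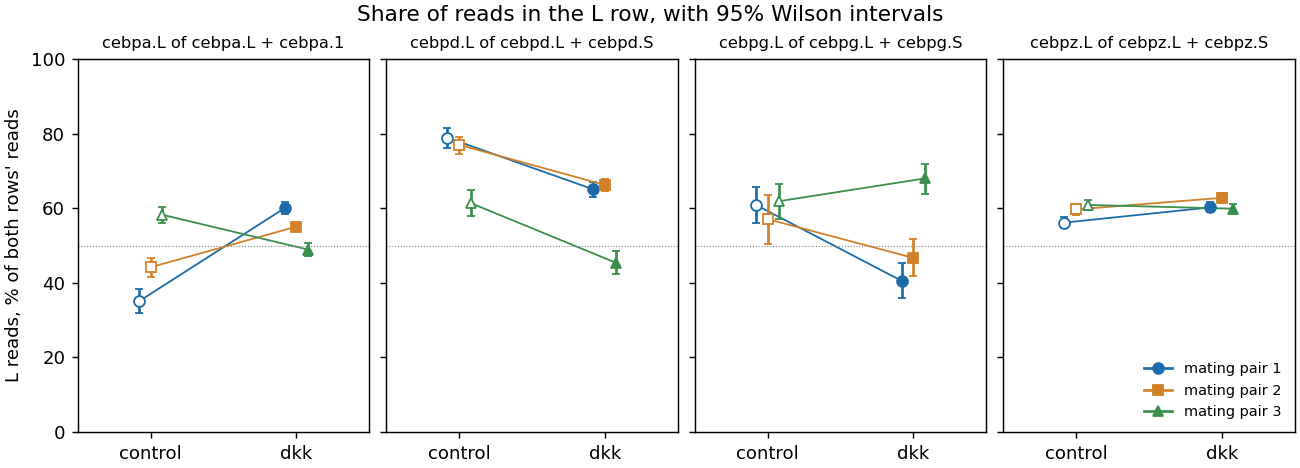
Reads of the L row as a percent of the reads of both rows of a gene, in each embryo, with 95% Wilson intervals; open symbols are controls, filled symbols dkk embryos, and lines join siblings. The cebpd lines all fall, from 61.4% to 78.9% in controls to 45.3% to 66.2% in dkk embryos, while those of cebpz stay within 56.1% to 62.8%.

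Levels also differed between matings, to an unequal degree among the rows. The mean log2 CPM of both embryos of a mating was 5.76, 6.35 and 4.46 for cebpd.L in matings 1 to 3, a range of 1.88. That range was wider than in 93.1% of tested genes, while the range of cebpz.L, 0.05, was wider than in only 0.596% of them. The median range of all tested genes was 0.67, and both cebpa rows lay near it, at 0.64 for cebpa.1 and 0.77 for cebpa.L. These means contain the control levels on which the family was chosen, so they are given with no test.

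In the blood and myeloid list, 6 rows, picked here after their values were seen, were far higher in the dkk embryos of pairs 1 and 2 and not of pair 3, as cebpa.L was, while others in the list went another way. spib.L, an Ets factor gene of the first myeloid cells in Xenopus, had 3, 12 and 9 reads in controls 1 to 3 and 203, 378 and 9 in dkk siblings. Its copy spib.S had 2, 2 and 7 reads in controls and 34, 46 and 9 in dkk siblings. Both rows were thus near the limit of detection in all controls and in the dkk embryo of pair 3.

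etv2, an Ets factor gene of blood and vessel precursors, was also split by pair. etv2.L had 82, 243 and 233 reads in controls and 486, 1324 and 89 in dkk siblings, and etv2.S had 99, 237 and 188 and then 520, 1252 and 104. The copies were higher in dkk in pairs 1 and 2 and lower in pair 3. gfi1.S, a zinc finger repressor gene of granulocyte development, had 6, 8 and 11 reads in controls and 47, 104 and 6 in dkk siblings, and gfi1.L had 1, 6 and 6 and then 25, 83 and 5. Both gfi1 rows were higher in dkk in pairs 1 and 2, as etv2 was. In pair 3 they had too few reads to give a direction, 11 against 6 for gfi1.S and 6 against 5 for gfi1.L. runx1.S, a core factor gene of blood formation, had another order, with 13, 10 and 12 reads in controls and 7, 24 and 51 in dkk siblings. The row had its highest ratio in pair 3, too few reads in pair 1 to give a direction, and did not pass (adjusted p = 0.806, edgeR). Its copy runx1.L had 0, 5 and 8 reads in controls and 4, 10 and 7 in dkk siblings. These reads were too few to give a direction, and the row was not tested.

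In the whole blood and myeloid list 17 of 30 names had rows, 29 in all, and 7 rows could be tested. edgeR, DESeq2 and limma-voom each called 0 of the 7, and edgeR gave 2 higher and 0 lower at an unadjusted p under 0.05, where 7.82% of all tested genes had such a p. The smallest p was that of fli1.L, an Ets factor gene, at 2, 5 and 7 reads in controls and 10, 13 and 17 in dkk siblings (log2 fold change 1.45; adjusted p = 0.475, edgeR). spib.L stood at 4.06 ± 1.24 (SE; adjusted p = 0.555, edgeR). These were the 2 rows at an unadjusted p under 0.05. fli1.L had fewer than 10 reads in each control and spib.L had 3, 12 and 9, so both needed dkk embryos to pass the filter. Their direction was thus largely set by the filter, and the count of 2 supports nothing about the list. Without pair 3 the filter, run again, kept 10 rows, with gfi1.L, lcp1.S and spib.S added. Of the 10, edgeR called 6 higher and 1 lower, beside 332 higher and 327 lower of 21750 genes. The higher ones were both copies of etv2, gfi1 and spib. gfi1.L, gfi1.S and spib.S had fewer than 10 reads in each control kept, so only their dkk embryos brought them past the filter. spib.L, with 3 and 12 reads in the controls kept, also needed dkk embryos to pass. The direction of these rows was thus set, or for spib.L largely set, by the filter, and the count of 6 supports nothing about the list. The lower one, cybb.L, a phagocyte oxidase gene, had 30, 49 and 1 reads in controls and 2, 8 and 36 in dkk siblings. Its dkk embryos kept in that fit had 2 and 8 reads, so only its controls brought it past the filter, which set its direction. Other defining genes of blood had few reads: gata1, an erythroid factor, had at most 1 read in any row and embryo. hbg1.S and spic.S had 0 in all, while their copies hbg1.L and spic.L had 1 to 8 and 0 to 1. spi1, a general myeloid factor, had 0 to 11, and tal1.L had 2, 0 and 1 in controls and 9, 3 and 2 in dkk siblings. The summed level of the list was 16.0 to 33.6 CPM in controls and 17.1 to 182 CPM in dkk embryos, and its part in the C/EBP values was not tested. In dkk embryo 2, where the sum was highest, etv2.L stood at 73.8, etv2.S at 69.7 and spib.L at 21.1 CPM, so the sum rested mostly on few rows.

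**Figure D4:**
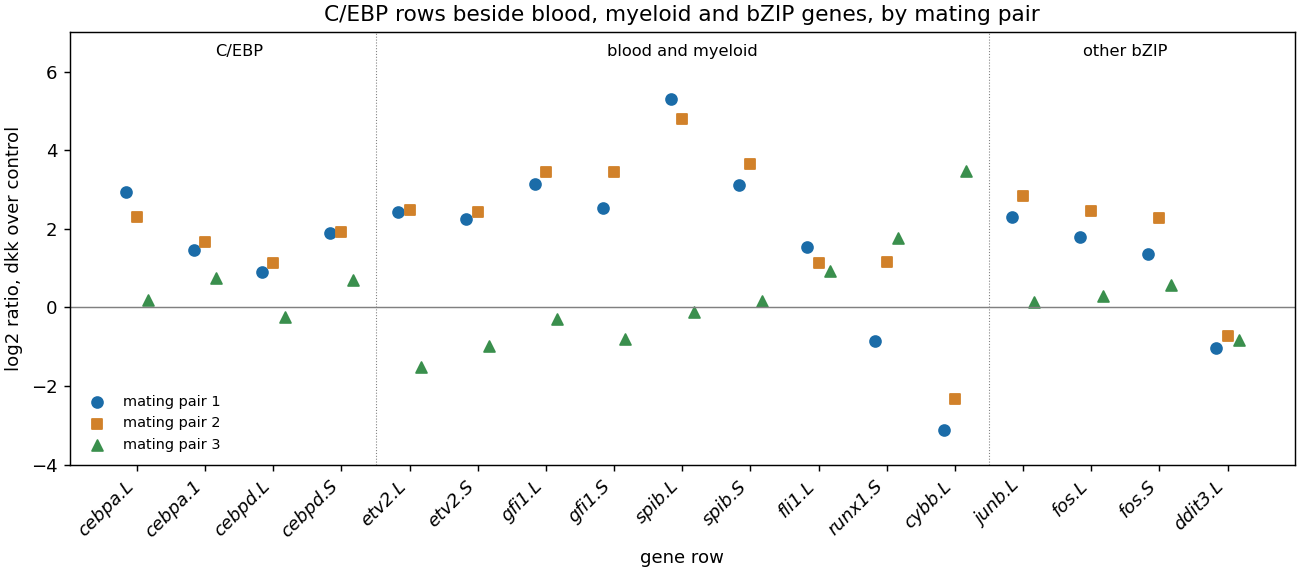
Log2 ratio of dkk over control in each mating pair for the cebpa and cebpd rows, for blood and myeloid genes and for other bZIP genes. In etv2, gfi1 and spib, pairs 1 and 2 stand between 2.25 and 5.29 and pair 3 between -1.52 and 0.16; ddit3.L is lower in every pair.

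Genes of the possible dimer partners and of the stress response gave no call in the edgeR fit of all embryos. Of 41 rows in this list 35 were tested and edgeR called 0. There were 10 higher and 3 lower at an unadjusted p under 0.05 (edgeR), which 7.82% of all tested genes had. DESeq2 called 2 higher and 1 lower, beside 125 higher and 263 lower of 20384 genes, and limma-voom called 0. The median over this list was 0.33 on the log2 scale. The smallest p was that of fos.S, an AP-1 gene, with 77, 31 and 80 reads in controls and 216, 155 and 133 in dkk siblings (log2 fold change 1.40 ± 0.35, SE; adjusted p = 0.225, edgeR). junb.L, another AP-1 gene, had 37, 26 and 26 reads in controls and 204, 192 and 32 in dkk siblings, again with pair 3 nearly level. Without pair 3, edgeR called 6 higher and 1 lower in this list, junb.L among the higher. In that fit 332 of 21750 genes were called higher and 327 lower. ddit3.L, whose product CHOP pairs with C/EBP proteins and in mammals blocks their binding to usual sites, was lower in every pair, with 99, 86 and 128 reads in controls and 52, 50 and 79 in dkk siblings (-0.88 ± 0.24; adjusted p = 0.294, edgeR). atf4.L, a gene for a partner of C/EBPγ in mammals, had no shared direction, with ratios of -0.64, 0.50 and -0.04 on the log2 scale. Its copy atf4.S was higher in every pair, at 0.47, 0.48 and 0.16, and did not pass (log2 fold change 0.37, adjusted p = 0.473, edgeR).

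Lists for tissues and processes in which C/EBP proteins act in mammals held 2 edgeR calls each in the liver and fat, cell cycle exit and epidermal lists. The counts stand beside 0.106% of all tested genes called higher and 0.467% called lower by edgeR, and since the lists were chosen with earlier results known, nothing is read from the difference. In the liver and fat list 1 of 28 tested rows rose and 1 fell. hhex.L, a homeobox gene of the early liver and anterior endomesoderm, rose from 26.8 ± 1.87 CPM to 61.7 ± 17.0 CPM (SD, n = 3), and lpl.S, a lipoprotein lipase copy, fell from 1.82 ± 0.53 CPM to 0.185 ± 0.036 CPM. lpl.S had 3, 3 and 5 reads in dkk embryos, so only its controls brought it past the filter, which set its direction. The other copy, lpl.L, had no shared direction, at -1.57, 0.03 and 0.85 on the log2 scale (adjusted p = 0.966, edgeR). hhex.L had its highest ratio in pair 3, at 1.53 on the log2 scale beside 0.98 and 1.00, unlike the cebpa rows. In the cell cycle exit list 2 of 38 rose and 0 fell, the cyclin G1 copies ccng1.L and ccng1.S. The gene of the cell cycle inhibitor p21 did not pass in either copy, and the copies differed in pair 3. cdkn1a.L had 28, 13 and 14 reads in controls and 64, 39 and 69 in dkk siblings, with the highest ratio in pair 3 (log2 fold change 1.58; adjusted p = 0.146, edgeR). cdkn1a.S had 8, 4 and 13 reads in controls and 47, 26 and 15 in dkk siblings, level in pair 3 (log2 fold change 1.66; adjusted p = 0.476, edgeR). In the epidermal list 1 of 25 rose, krt18.S, a keratin, and 1 fell, tp63.S, the epidermal p63 gene. Among 25 tested germ layer rows 5 fell and 0 rose, and the 3 with the smallest p were both copies of brachyury (t.L and t.S), the pan-mesodermal gene, and myf5.L, a muscle determination gene. The ratios of t.L were -1.53, -1.57 and -1.59 in pairs 1 to 3 on the log2 scale, so the fall of this row in pair 3 was as large as in the others. A small p favours rows with like ratios in all pairs, so the evenness of t.L does not describe other rows. dkk1.L, outside this list, was lower in every pair but by less in pair 3, with ratios of -2.38, -2.97 and -0.94. That row did not pass (log2 fold change -2.08; adjusted p = 0.152, edgeR). Markers of other cell types, 17 rows, summed to 1.63 to 2.12 CPM in controls and 2.49 to 24.5 CPM in dkk embryos, and spib.L was the 1 row of these that could be tested. spib.L alone stood at 10.9, 21.1 and 0.408 CPM in dkk embryos 1 to 3, so the highest sum rested mostly on this row.

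The rows most like cebpa.1 over the 6 libraries were found by Pearson correlation of log2 CPM. Within the family cebpd.S was closest (r = 0.99), followed by cebpa.L (0.93) and cebpb.S (0.85), while cebpd.L (0.64) and cebpg.L (-0.17) were less alike. Outside the family the 5 named rows with the highest r, from 0.98 to 0.99, were cgrrf1.L, tesc.S, gadd45g.S, tfap2b.L and b3gnt7.S. None of them passed in the dkk comparison by edgeR. The sibling ratio of pair 3 was the lowest of the 3 in each, as in cebpa.1, which the choice by likeness to that row favours. gadd45g.S, a growth arrest gene, went from a mean of 30.3 CPM in controls to 43.4 CPM in dkk embryos. These 6 libraries share their groups and matings, so the correlations are a description over few points. Of genes within 3 places of cebpd on the chromosome, by the order of the RefSeq table, mcm4, a DNA helicase subunit gene, had log2 ratios of 0.72, 0.65 and -0.17 for mcm4.L and 0.48, 1.01 and -0.29 for mcm4.S, while ube2v2.S, 2 genes from cebpd.S, had 0.13, 0.08 and 0.02. prkdc.L, a DNA repair kinase gene and the nearest neighbour of cebpd.L with a row, was lower in every pair, at -0.49, -0.42 and -0.12. None of these passed in edgeR. Within 3 places of cebpa.L, chst8.L had log2 ratios of -0.46, -0.46 and 0.01, and lrp3.L had 0.40, 0.09 and 0.23. Neither passed (edgeR), and wdr88.L, at 0.14, 0.49 and -0.10, was not tested.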

How the data were processed

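Polyadenylated RNA of 6 single embryos was sequenced, per the labels' protocols. The authors deposited raw read counts per gene, made with TopHat2, SAMtools and HTSeq per the submitters' processing notes; no version, setting, genome build or annotation is given in the sources used here. Rows that name no gene, 25.6% to 28.2% of counted reads, were left out. Their own comparison, deposited for 97 genes, holds per the file headers a baseMean (a signal of normalized counts), log2 fold changes with standard errors, a test score, and p-values. The name of that deposit includes DESeq, and the sources used here do not give its version or model.

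Counts were fitted for all embryos with edgeR 4.0.16 in R 4.3.3: TMM scaling, filterByExpr (minimum count 10, total 15), robust quasi-likelihood F test, mating pair as a block, and Benjamini-Hochberg adjustment over 21643 genes with a threshold of 0.05. The design text gives the pairing; deviations from group means correlated at 0.67, 0.55 and 0.62 within pairs. Standard errors are those the F statistic implies, and the log2 ratio of a pair had a prior count of 2. The test was checked on simulated data, where genes with a high spread gave more false calls than the threshold allows. Alternatives were edgeR with no block, with DESeq2 size factors or with upper-quartile scaling, DESeq2 1.42.0, limma-voom (limma 3.58.1), no filter, at least 1 CPM in 3 libraries, L and S copies summed, cebpa.1 summed with cebpa.L (added after seeing the data) and each pair left out.

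A planned test between matings is not reported, since control levels helped to choose the family. Members and lists were chosen with earlier results of these data known. Named were every C/EBP row, up to 3 called members of each list by smallest p (if none passed, the 1 with the smallest p) and the 5 rows most like each called C/EBP row. The etv2, gfi1, spib.S, cybb.L, lcp1.S, gata1, hbg1, spic, spi1 and tal1.L rows were named after their values were seen. So were the junb.L, ddit3.L, atf4.L, atf4.S, runx1.L, runx1.S, cdkn1a, lpl.L, mcm4, prkdc.L, ube2v2.S, chst8.L, lrp3.L, wdr88.L and dkk1.L rows.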

Additional observations from a re-analysis of the deposited data

How the results depend on the processing

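The pairing decided most calls. Without the replicate block 14 genes were called in place of 124, and 0 C/EBP rows in place of 1 (edgeR, with 3 higher at an unadjusted p under 0.05). DESeq2 called 388 genes and 2 C/EBP rows, and edgeR without a filter on low counts 343 genes and 2 C/EBP rows, in both cases cebpa.1 and cebpd.S. Leaving out a mating pair gave 58 to 659 genes and 0 to 4 C/EBP rows, the lowest without pair 2 and the highest without pair 3. Of the tested C/EBP rows, those with small changes turned sign: with a pair left out cebpg.L ran from -0.13 to 0.45 and cebpz.L from -0.025 to 0.17 on the log2 scale, and cebpz.S stood at 0.00501 with its copies summed; the cause was not tested. cebpa.1 summed with cebpa.L stood at 1.54 on the log2 scale and missed the threshold (adjusted p = 0.467, edgeR). DESeq2 size factors, upper-quartile scaling, limma-voom and a filter of 1 CPM in 3 libraries kept the direction and call of every tested C/EBP row. The depth limited cebpb.L and both cebpe rows, which had at most 10 reads in a library.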
